A study of Mus musculus with 22 samples.

Results

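Sox7, Sox17 and Sox18 are the 3 SoxF members of the Sox family, and their rows were taken by gene symbol from a table of 55367 symbols measured in 22 mouse RNA-seq libraries. Primitive endoderm (PrE) is the extraembryonic layer that covers the inner cell mass of the blastocyst, and it can be held in culture as PrE stem cells. The study asks how EZH2, the catalytic subunit of the Polycomb complex PRC2, bears on the choice between pluripotency and PrE in embryonic stem cells (ESCs). All groups below are named after the sample titles.

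PrE stem cells in PrESC culture came as 2 E14 lines with wild-type genotype, EPZ_iPrE1 and EPZ_iPrE2, which the study's design describes as obtained from wild-type ESCs with EPZ-6438, an EZH2 inhibitor. A wild-type C57 line gave C57_PrESC, in the same culture. KO10_SL is an E14 ESC clone without Ezh2, clone 10, in medium with LIF, where SL is serum with LIF. KO10_SL_rescued is that clone after rescue, in the same medium, and KO10_S2iL is the clone in medium with LIF and 2i. Wild-type E14 ESCs were TG2A_S2iL in LIF and 2i, and TG2A_ESC and E14_ESC in LIF, with titles TG2A.NG.PB and ESC. Wild-type C57_ESC was in LIF. E14_ESC and KO10_SL had 3 libraries each and the other 8 groups had 2 each. The knockout is represented by 1 clone here. Nothing in the labels says that replicates came from separate cultures, so p-values measure the spread between these libraries, which may be technical.

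SoxF proteins are transcription factors that bind DNA through an HMG box and carry a C-terminal activation region. Sox17 and Sox7 are known from extraembryonic endoderm, where Sox17 acts in PrE and in its parietal and visceral derivatives, and Sox17 is also needed in the definitive endoderm of the mouse embryo. Sox18 is best known from blood and lymphatic endothelium, where Sox7 and Sox17 act with it. On DNA, Sox17 can pair with Oct4 (Pou5f1) in place of Sox2.

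In GENCODE M21 on GRCm38, the files' build under its Ensembl name, Sox7 (ENSMUSG00000063060) lies at chr14:63943673-63950732 on the plus strand, with 2 exons and 1 transcript. Sox17 (ENSMUSG00000025902) lies at chr1:4490931-4497354 on the minus strand, with 8 annotated transcripts. Sox18 (ENSMUSG00000046470) lies at chr2:181669836-181671640 on the minus strand, with 2 exons and 1 transcript. Since the members' counts can be read apart only where their sequences differ, the 60 bases of coding exon in which the 3 genes are most alike are shown, 5′ to 3′ on the coding strand. They were read from the GENCODE transcripts, and they sit at chr14:63947799-63947858 for Sox7, chr1:4492565-4492624 for Sox17 and chr2:181670893-181670952 for Sox18. Capitals mark the bases that are not the same in all 3.
Sox7: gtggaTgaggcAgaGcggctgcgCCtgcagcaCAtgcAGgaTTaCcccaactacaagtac
Sox17: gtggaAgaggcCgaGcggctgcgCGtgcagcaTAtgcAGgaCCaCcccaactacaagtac
Sox18: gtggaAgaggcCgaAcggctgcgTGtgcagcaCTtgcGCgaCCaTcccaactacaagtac
Over these 60 bases Sox7 and Sox17 were identical at 54, Sox17 and Sox18 at 53, and Sox7 and Sox18 at 49. The longest run shared by any 2 of the whole transcripts was 29 bases, between Sox17 and Sox18. The longest shared with Sox7 were 22 bases, for Sox17, and 20 bases, for Sox18.

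The estimated counts summed to between 13.6 M and 26.3 M per library. Ezh2 held 2, 1 and 1 counts in KO10_SL and 6 and 0 in KO10_S2iL. On the CPM scale (counts relative to library size, with TMM scaling) it stood at 495 and 532 in KO10_SL_rescued and between 118 and 239 in the other groups. The 7 PrE markers Gata6, Gata4, Pdgfra, Dab2, Lama1, Col4a1 and Cubn summed to between 10311 and 14119 CPM in the 6 PrE stem cell libraries. All 7 were called higher (as defined below) in each of 3 PrE comparisons and in KO10_SL against E14_ESC. Of all genes, 27.3 to 28.8% were called higher in the PrE comparisons and 25.8% in KO10_SL against E14_ESC. Their sum was 1566 to 1841 CPM in KO10_SL, 396 to 401 in KO10_S2iL and between 132 and 634 in the other ESC libraries. The 6 pluripotency markers Pou5f1, Sox2, Nanog, Zfp42, Esrrb and Fgf4 summed to 557 to 1143 CPM in PrE stem cells and 2260 to 4538 CPM in ESCs. In the comparisons with ESCs, 6, 6 and 5 of these 6 were called lower in EPZ_iPrE1, EPZ_iPrE2 and C57_PrESC. In KO10_SL against E14_ESC 1 rose and 1 fell. The shares of all genes called lower were 32.2 to 33.4% in the PrE comparisons and 22.7% in KO10_SL against E14_ESC. Libraries of the C57 groups differed in markers of other cells: 9 fibroblast markers summed to 27.9 and 1893 CPM in C57_PrESC and to 22.4 and 319 CPM in C57_ESC, replicate 1 first. The same sum ran from 25.3 to 256 CPM in the 4 EPZ libraries. The 8 macrophage markers summed to 62.1 and 183 CPM in C57_PrESC, and to at most 52.4 CPM in any other group. In C57_PrESC replicate 1 most of this sum was Cd68 (32.1 CPM) and Fcgr3 (24.3 CPM), with Ptprc, Adgre1 and Tyrobp at 0. Fcgr3 stood at 11.1 to 47.6 CPM in the PrE libraries and at most 1.01 CPM in ESCs. The C57 groups also differed in Ddx3y, a gene on the Y chromosome, which had 157 and 149.8 CPM in C57_PrESC and 0.0530 and 2.98 CPM in C57_ESC. This gene was picked with its values in view, and between these groups the line and the cell state cannot be told apart.

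Sox17 and Sox7 were high in every PrE stem cell library, intermediate in KO10_SL and low in the other ESC groups, and Sox18 was near 0 throughout. Sox17 stood at 224 and 250.3 CPM in EPZ_iPrE1, 254 and 193 in EPZ_iPrE2, and 262 and 138 in C57_PrESC. It stood at 27.3, 23.2 and 24.5 CPM in KO10_SL, 0.388 and 0.803 in KO10_SL_rescued, and 3.37 and 2.63 in KO10_S2iL. Wild-type ESCs held 0.120 and 0.292 CPM of it in TG2A_S2iL and 1.56 and 4.40 CPM in TG2A_ESC. E14_ESC held 0.180, 0.239 and 0.261 CPM, and C57_ESC held 4.55 and 0.353 CPM. The 6 PrE libraries lay above all knockout libraries, and the 3 KO10_SL libraries lay above all 13 remaining ESC libraries. By group mean, Sox17 was highest in EPZ_iPrE1, then EPZ_iPrE2 and C57_PrESC, whose library ranges overlapped from each neighbour to the next. KO10_SL came next and overlapped neither side, and below it the ranges of KO10_S2iL, TG2A_ESC, C57_ESC and KO10_SL_rescued overlapped from neighbour to neighbour, as did those of E14_ESC and TG2A_S2iL.

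Sox7 stood at 56.6 and 49.8 CPM in EPZ_iPrE1, 61.1 and 70.1 in EPZ_iPrE2, and 123 and 138 in C57_PrESC. It stood at 11.8, 9.31 and 9.91 CPM in KO10_SL, 0.665 and 0.428 in KO10_SL_rescued, and 0.804 and 0.620 in KO10_S2iL. Wild-type ESCs held 0.0600 and 0.233 CPM of it in TG2A_S2iL and 2.29 and 3.30 CPM in TG2A_ESC. E14_ESC held 0.599, 0.478 and 0.597 CPM, and C57_ESC held 6.89 and 1.26 CPM. Unlike Sox17, Sox7 was highest in C57_PrESC, whose libraries lay above those of both EPZ lines. Further down the order, the neighbours whose ranges overlapped were C57_ESC with TG2A_ESC and E14_ESC with KO10_SL_rescued. In bulk RNA, fewer expressing cells and less RNA per cell cannot be told apart, which holds for every level between the PrE and ESC values here.

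Sox18 was counted at 6 and 0 in EPZ_iPrE1 and at 0 in both libraries of EPZ_iPrE2 and of C57_PrESC. It held 7, 2 and 2 counts in KO10_SL and 10 and 8 in KO10_SL_rescued. Under 2i it held 2 and 1 counts in KO10_S2iL, against 2 and 5 counts in TG2A_S2iL. The other wild-type libraries held 7 to 17 counts, with 11 and 7 in TG2A_ESC, with 8, 7 and 10 in E14_ESC and with 11 and 17 in C57_ESC, which had the highest level of any library, 0.858 CPM. A sum of 0 over the libraries of a group allows up to 0.101 CPM in EPZ_iPrE2 and 0.0938 CPM in C57_PrESC, taken as 3 counts over the group and covering counting error only. By group mean Sox18 was highest in C57_ESC, at 0.720 CPM, whose libraries lay above those of KO10_SL_rescued, the next group, and the groups after that overlapped each neighbour down to KO10_S2iL. All group means were under 1 CPM, so this order rests on few counts.

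**Figure D1:**
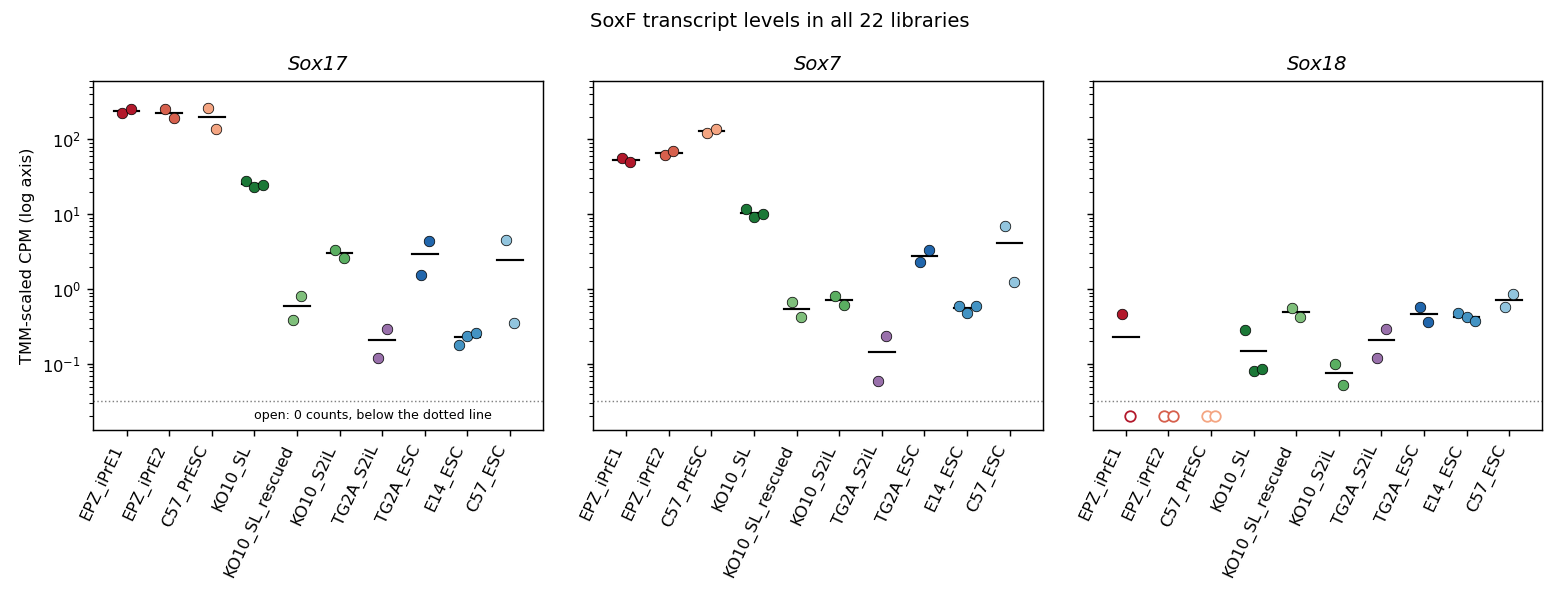
Level of Sox17, Sox7 and Sox18 (TMM-scaled CPM, log axis) in each of 22 libraries by group. Points are libraries, bars are group means, and open points below the dotted line had 0 counts; the 6 PrE libraries on the left hold Sox17 at 138 to 262 CPM and Sox7 at 49.8 to 138 CPM.

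Per kilobase of exon, Sox17 exceeded Sox7 in the means of all 3 PrE groups and of KO10_SL, and as a ratio of the means the excess was smallest in C57_PrESC. Divided by the 3299 bases of the Sox7 transcript, mean Sox7 was 16.1 CPM per kb in EPZ_iPrE1, 19.9 in EPZ_iPrE2, 39.5 in C57_PrESC and 3.13 in KO10_SL. Divided by the 4772 bases of all Sox17 exons joined, mean Sox17 was 49.6, 46.8, 42.0 and 5.24 CPM per kb in the same order. With the 3127 bases of the first-listed Sox17 transcript as divisor, the Sox17 values were 75.8, 71.4, 64.1 and 8.0 CPM per kb. In C57_PrESC replicate 2, Sox7 stood at 41.7 CPM per kb, against Sox17 at 29.0 by joined exons and 44.3 by that transcript. Replicate 1 held 37.3 CPM per kb of Sox7, against 55.0 and 83.9 of Sox17. Counts per gene do not show which of the 8 Sox17 transcripts these cells make.

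Within a library, where depth cancels, the count of Sox17 divided by that of Sox7 was 3.95 and 5.02 in EPZ_iPrE1, 4.15 and 2.75 in EPZ_iPrE2, and 2.13 and 1.01 in C57_PrESC. The ratio was 2.32, 2.49 and 2.47 in KO10_SL and 4.19 and 4.25 in KO10_S2iL. In wild-type ESCs it was 0.682 and 1.33 in TG2A_ESC and 0.662 in C57_ESC replicate 1, and the remaining libraries held under 10 counts of one or both genes. All 9 knockout and EPZ libraries thus had at least 2.32 counts of Sox17 for each count of Sox7, against at most 1.33 in the 3 wild-type ESC libraries with enough counts. The 4 EPZ libraries lay above both C57_PrESC libraries. C57_PrESC replicate 2, which had the lower ratio and the lower Sox17 level, was the library with 1893 CPM of fibroblast markers, and their part in the ratio was not tested.

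**Figure D2:**
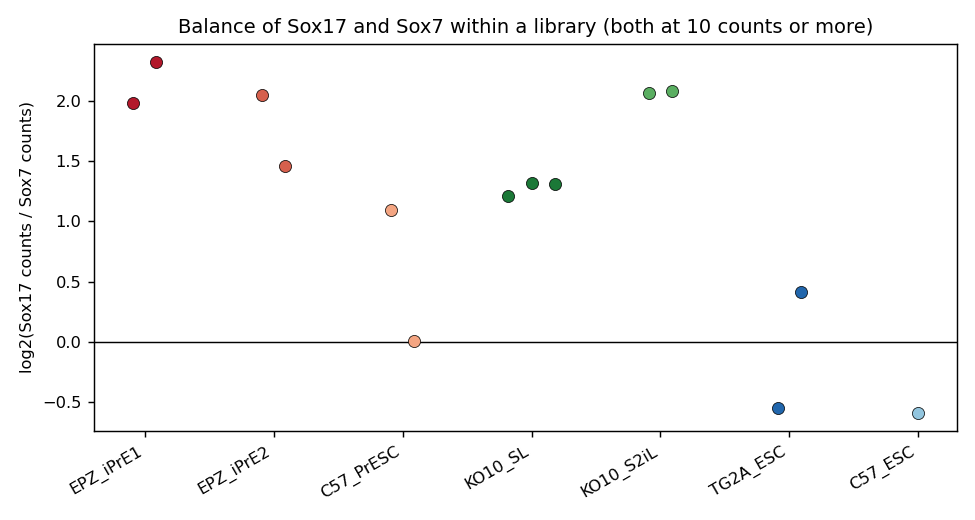
log2 of Sox17 counts over Sox7 counts in each library that holds at least 10 counts of both genes, by group. Points are libraries and the line at 0 marks equal counts; the EPZ and knockout libraries lie between ratios of 2.32 and 5.02, and C57_PrESC replicate 2 is at 1.01.

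Sox17 and Sox7 were far higher in all 3 sets of PrE stem cells than in ESCs of the same label. Changes are log2 fold changes from edgeR's quasi-likelihood test with their standard error (SE), and a positive value means a higher level in the group named first. A gene was called at a Benjamini-Hochberg adjusted p below 0.05 over all 17547 genes tested. In EPZ_iPrE1 against TG2A_ESC, Sox17 was higher by 6.31 (SE 0.578, adjusted p = 8.41e-08) and Sox7 by 4.25 (SE 0.445, adjusted p = 4.06e-07). This comparison called 27.9% of all genes higher and 32.2% lower, and the changes of Sox17 and Sox7 ranked 200 and 578 from the top of 17547. In EPZ_iPrE2 against TG2A_ESC, where 28.8% of genes were called higher and 33.4% lower, Sox17 was higher by 6.22 (SE 0.576, adjusted p = 9.08e-08) and Sox7 by 4.55 (SE 0.449, adjusted p = 1.89e-07). Both comparisons use the same TG2A_ESC libraries. Without TG2A_ESC replicate 2, which held the higher Sox17 level of that group, Sox17 was higher by 7.26 in EPZ_iPrE1 and by 7.16 in EPZ_iPrE2.

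In C57_PrESC against C57_ESC, with 27.3% of genes called higher and 33.4% lower, Sox17 was higher by 6.36 (SE 0.586, adjusted p = 9.39e-08) and Sox7 by 5.00 (SE 0.447, adjusted p = 6.62e-08). They ranked 133 and 259 from the top. The size rested on which C57_ESC library was used, since replicate 1 held 4.55 CPM of Sox17 and 6.89 CPM of Sox7 and replicate 2 held 0.353 and 1.26 CPM. Without C57_ESC replicate 1 the changes were 9.15 for Sox17 and 6.71 for Sox7, and without replicate 2 they were 5.47 and 4.25. The PrE marker sum was 634 CPM in C57_ESC replicate 1 and 132 CPM in replicate 2, and its part in the difference was not tested.

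Sox18 fell in 2 of these 3 comparisons. It was called lower in EPZ_iPrE2 against TG2A_ESC, at 0 against 18 counts over the group, at least 4.66-fold lower (adjusted p = 0.00499 by edgeR). It was called lower in C57_PrESC against C57_ESC, at 0 against 28 counts, at least 7.71-fold lower (adjusted p = 0.00162 by edgeR). In EPZ_iPrE1, with 6 against 18 counts, its change was -1.0 (SE 0.914, adjusted p = 0.362), and all 6 counts came from replicate 1. Without that library EPZ_iPrE1 held 0 counts, and Sox18 was called with an adjusted p of 0.0151 by edgeR. With 32.2 to 33.4% of all genes called lower in these comparisons, a lower Sox18 sits among many genes.

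Between the PrE lines, Sox17 did not pass the test and Sox7 did. In EPZ_iPrE2 against EPZ_iPrE1, where 1.75% of genes were called higher and 2.16% lower, no member was called by edgeR, and Sox17 and Sox7 were not by DESeq2. The change was -0.09 (SE 0.432, adjusted p = 1) for Sox17 and 0.30 (SE 0.368, adjusted p = 0.811) for Sox7, by edgeR. Sox18 held 0 against 6 counts there (adjusted p = 0.175 by edgeR). In the mean of both EPZ lines against C57_PrESC, with 20.6% of genes called higher and 20.1% lower, Sox7 fell by 1.14 (SE 0.306, adjusted p = 0.00694 by edgeR), and the 4 EPZ libraries lay below both C57_PrESC libraries. Sox17 changed by 0.20 (SE 0.377, adjusted p = 0.729 by edgeR), and by -0.18 without C57_PrESC replicate 2. Sox18 held 6 counts in the 4 EPZ libraries against 0 in the 2 C57_PrESC libraries, and the fit gave no usable change for it.

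The next question is whether loss of Ezh2 in ESCs raises the SoxF genes without PrE culture. KO10_SL had 25.0 ± 2.11 CPM of Sox17 against 0.227 ± 0.0422 CPM in E14_ESC, and 10.3 ± 1.28 CPM of Sox7 against 0.558 ± 0.0691 CPM (SD, n = 3 each). Sox17 rose by 6.71 (SE 0.639, adjusted p = 4.59e-07 by edgeR), rank 50 from the top of all genes, and Sox7 by 4.18 (SE 0.438, adjusted p = 1.20e-06 by edgeR), rank 358. In this comparison 25.8% of genes were called higher and 22.7% lower. Against the other wild-type set, TG2A_ESC, with 13.6% of genes called higher and 14.1% lower, the rises were smaller: 3.07 for Sox17 (SE 0.516, adjusted p = 4.18e-04) and 1.88 for Sox7 (SE 0.408, adjusted p = 0.00262). Without TG2A_ESC replicate 2 the Sox17 rise was 4.02. Sox18 held 11 counts in KO10_SL against 25 in E14_ESC and was not called (-1.44, SE 0.722, adjusted p = 0.114 by edgeR), but without KO10_SL replicate 1, which held 7 of the 11, it was called lower (-2.27, adjusted p = 0.0468). The fibroblast marker sum was 32.7 to 38.9 CPM in KO10_SL, against 12.6 to 15.5 CPM in E14_ESC. Most of it was Thy1, at 23.8 to 25.4 CPM in KO10_SL and 9.21 to 12.2 CPM in E14_ESC. The macrophage sum was at most 7.72 CPM in KO10_SL against at most 11.2 CPM in E14_ESC. Of the fibroblast markers 1 of 9, and of the macrophage markers 2 of 6 tested, were called higher, and their part in the SoxF values was not tested.

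The knockout level stayed below that of PrE stem cells. KO10_SL held 10.9% of the mean Sox17 level of the 4 EPZ libraries, and 17.4% of their mean Sox7 level. Set against the mean of both EPZ lines, KO10_SL was lower in Sox17 (log2 change -3.20, SE 0.376, adjusted p = 9.62e-07) and in Sox7 (-2.51, SE 0.311, adjusted p = 1.72e-06), where 39.7% of genes were called higher and 32.5% lower. Sox18, with 11 counts in KO10_SL against 6 and 0 counts in the EPZ lines, was not called there (adjusted p = 0.127 by edgeR). Without EPZ_iPrE1 replicate 1, when all EPZ libraries stood at 0 counts, it was called higher (adjusted p = 0.00766 by edgeR). Among the 14 genes of the PrE lists below that were also called higher in KO10_SL than in E14_ESC, the share of the EPZ level ran from 3.73% for Pdgfra to 425% for Eomes, with a median of 12.6%. Sox17 and Sox7 fell between these ends, but so wide a range says little about them. The 14 were kept for a rise in KO10_SL, the group whose share is read, which left out Hhex, Hnf4a and Lamc1. Eomes, at the upper end, was not raised in the EPZ lines. Its mean was 2.82 CPM in EPZ_iPrE1 and 2.11 CPM in EPZ_iPrE2, against 2.95 CPM in TG2A_ESC. Whether the shares of Sox17 and Sox7 are typical of PrE genes was not tested.

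**Figure D3:**
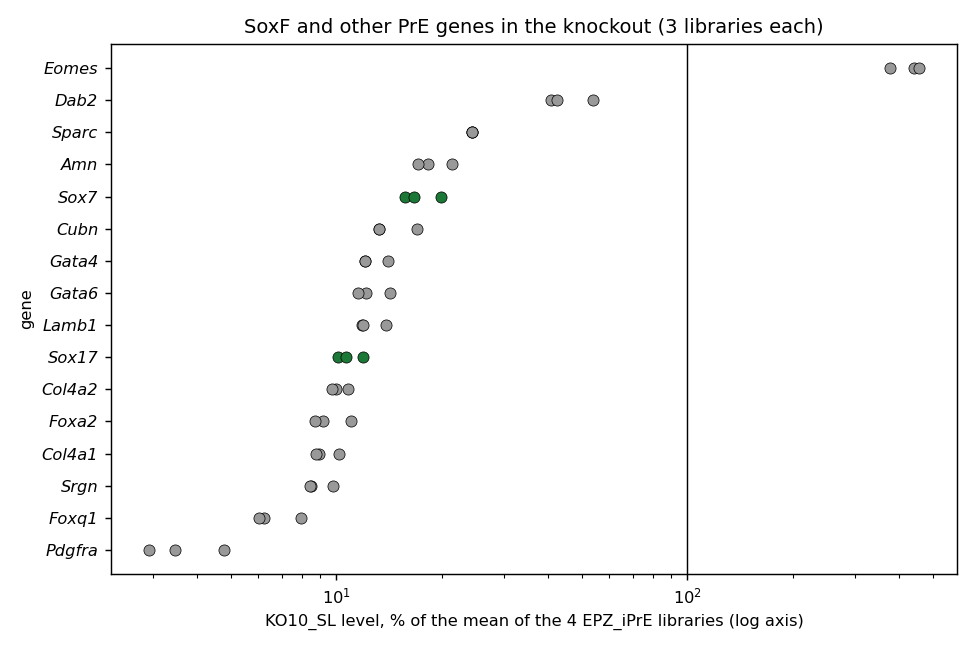
Level in KO10_SL as a percent of the mean over the 4 EPZ_iPrE libraries (log axis), for Sox17, Sox7 (green) and the 14 other PrE genes called higher in KO10_SL than in E14_ESC (grey). Each gene has 3 points, 1 for each KO10_SL library, and the line marks 100%; Sox17 averaged 10.9% and Sox7 17.4%.

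With Ezh2 returned, both genes were lower than in the knockout. In KO10_SL_rescued against KO10_SL, where 20.9% of genes were called higher and 24.1% lower, Sox17 fell by 5.37 (SE 0.664, adjusted p = 8.55e-06 by edgeR) and Sox7 by 4.23 (SE 0.527, adjusted p = 9.19e-06 by edgeR). Without the rescued replicate 2, which held 0.803 CPM against 0.388 CPM in replicate 1, the Sox17 change was -6.01. Sox18 held 18 counts in the 2 rescued libraries against 11 in the 3 knockout libraries and was not called (1.66, SE 0.783, adjusted p = 0.0995 by edgeR), but it was without KO10_SL replicate 1 (2.50, adjusted p = 0.0413). In KO10_SL_rescued against E14_ESC, where 0.0285% of genes were called higher and 0.0798% lower (19 genes in all, against 551 with the compared groups alone, 389 with no filter and 178 with DESeq2), no member was called by edgeR or DESeq2, nor passed an unadjusted p of 0.05 in edgeR, and DESeq2 gave no adjusted p for Sox18. Sox17 stood at 1.34 (SE 1.17, adjusted p = 0.807 by edgeR) from 22 against 14 counts, and both rescued libraries lay above all 3 E14_ESC libraries. Sox7 stood at -0.05 (SE 0.698, adjusted p = 1 by edgeR) from 20 against 34 counts.

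Both genes were lower in medium with 2i in the knockout, and in the wild type when set against TG2A_ESC. E14_ESC, the other wild-type E14 set in LIF, held a mean of 0.227 CPM of Sox17, beside 0.206 CPM in TG2A_S2iL, with overlapping library ranges. For Sox7 these means were 0.558 and 0.147 CPM, without overlap, and this pair of groups was not tested. In KO10_S2iL against KO10_SL, with 19.6% of genes called higher and 17.3% lower, Sox17 fell by 3.06 (SE 0.514, adjusted p = 2.39e-04 by edgeR) and Sox7 fell by 3.84 (SE 0.498, adjusted p = 2.29e-05 by edgeR). Their changes ranked 139 and 76 from the bottom of 17547 genes. In TG2A_S2iL against TG2A_ESC, with 11.7% called higher and 11.6% lower, Sox17 fell by 3.80 (SE 1.03, adjusted p = 0.0136 by edgeR) and Sox7 by 4.18 (SE 0.786, adjusted p = 0.00129 by edgeR). The wild-type fall rests on 7 counts of Sox17 and 5 of Sox7 in TG2A_S2iL, against 114 and 107 in TG2A_ESC. The Sox17 call ended without TG2A_ESC replicate 2 (-2.88), TG2A_S2iL replicate 1 (-3.32) or TG2A_S2iL replicate 2 (-4.57), and the Sox7 fall was 3.55 and 5.40 without TG2A_S2iL replicate 1 and replicate 2.

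Under 2i, Sox17 was still higher in the knockout. In KO10_S2iL against TG2A_S2iL, with 15.7% of genes called higher and 14.3% lower, Sox17 rose by 3.82 (SE 1.03, adjusted p = 0.0105 by edgeR) at 118 against 7 counts. This call ended without KO10_S2iL replicate 1 (3.61), TG2A_S2iL replicate 1 (3.31) or TG2A_S2iL replicate 2 (4.56), with adjusted p between 0.0520 and 0.0893 by edgeR. Sox7, at 28 against 5 counts, was not called (2.22, SE 0.98, adjusted p = 0.0991 by edgeR), and it passed with no filter on low counts (2.28), with the compared groups alone (2.23) and with DESeq2 (2.32). The knockout change under 2i less the one in serum/LIF was 0.75 for Sox17 (SE 1.32, adjusted p = 0.839) and 0.33 for Sox7 (SE 1.03, adjusted p = 0.925), in a comparison that called 0.838% of genes higher and 1.12% lower. No difference between the media was detectable in the knockout change, and with E14_ESC in place of TG2A_ESC as the serum/LIF control both values changed sign, to -2.90 and -1.96, again not called.

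Wild-type ESC sets differed among themselves in the same genes. In E14_ESC against TG2A_ESC, with 11.2% of genes called higher and 13.1% lower, Sox17 was lower by 3.64 (change -3.64, SE 0.840, adjusted p = 0.00482) and Sox7 by 2.30 (-2.30, SE 0.520, adjusted p = 0.00425). Both calls ended without TG2A_ESC replicate 2, at -2.71 and -2.0. Gata6, the GATA factor that starts the PrE programme, was 1.56, 0.777 and 0.895 CPM in E14_ESC, against 3.28 and 12.3 CPM in TG2A_ESC. Of the 7 PrE markers, Gata6, Gata4 and Pdgfra were higher in TG2A_ESC replicate 2, and Dab2, Lama1, Col4a1 and Cubn in replicate 1. The 7 summed to 289 CPM in replicate 1 and 280 CPM in replicate 2. In C57_ESC against TG2A_ESC, with 19.8% of genes called higher and 19.1% lower, neither Sox17 (-0.30, SE 0.633, adjusted p = 0.744) nor Sox7 (0.54, SE 0.454, adjusted p = 0.372) was called. Without C57_ESC replicate 1, Sox17 stood at -3.04 and Sox7 at -1.13, both called, and without replicate 2 they stood at 0.60, not called, and 1.29, called. Without TG2A_ESC replicate 2, Sox17 stood at 0.65, not called. The sign of both changes turned on which C57_ESC library was left out.

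**Figure D4:**
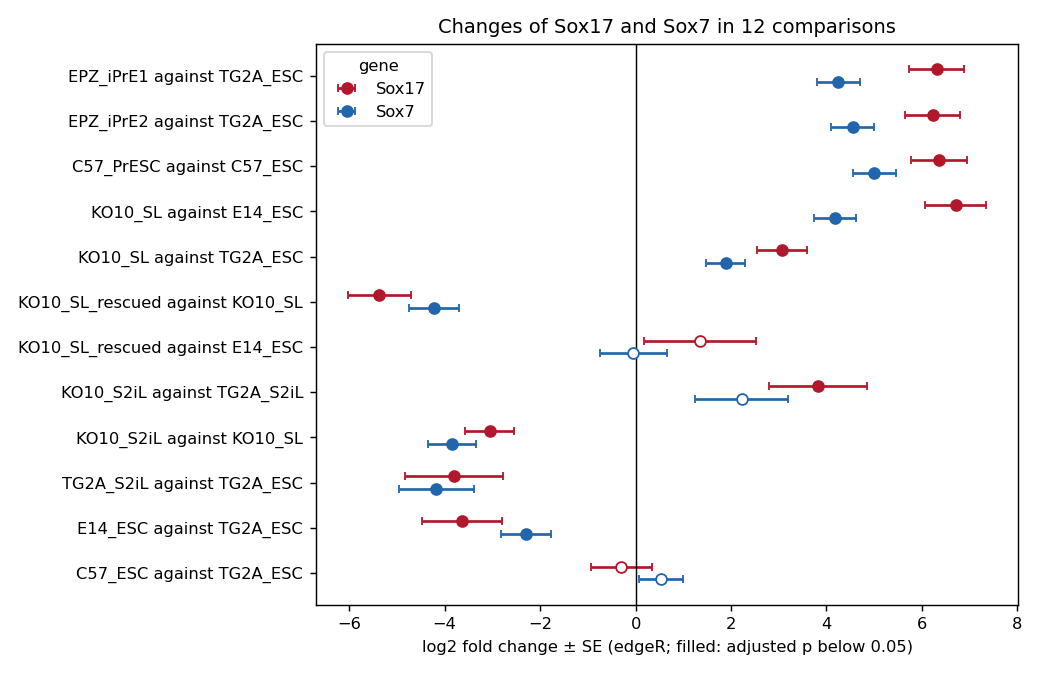
log2 fold change ± SE from edgeR for Sox17 (red) and Sox7 (blue) in 12 comparisons, the first-named group over the second. Filled points had an adjusted p below 0.05. Both genes rise in the 3 PrE comparisons and in KO10_SL. Both fall in KO10_SL_rescued against KO10_SL, and under 2i against KO10_SL and TG2A_ESC.

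Most other Sox genes were called lower in PrE stem cells, where Sox17 and Sox7 were higher. Over all genes, EPZ_iPrE1, EPZ_iPrE2 and C57_PrESC had 27.9, 28.8 and 27.3% called higher and 32.2, 33.4 and 33.4% called lower. Of the 17 other Sox genes listed, 15 were tested. In EPZ_iPrE1 against TG2A_ESC 1 was called higher and 11 lower, with a median change of -2.01 against -0.07 over all genes. In EPZ_iPrE2 against TG2A_ESC the counts were again 1 higher and 11 lower (median -2.52 against -0.11). In C57_PrESC against C57_ESC 0 were called higher and 12 lower (median -3.93 against -0.09). Sox5, Sox6, Sox8, Sox10 and Sox30 stood at or below 0.891 CPM in TG2A_ESC, so their changes in the EPZ lines rest on few counts. The gene called higher in both EPZ lines was Sox9, a SoxE factor of cartilage and gut, at 5.37 and 3.12 CPM in EPZ_iPrE1 and 3.09 and 4.21 in EPZ_iPrE2, against 0.0520 and 0.157 CPM in TG2A_ESC. Sox2, the SoxB1 partner of Oct4, stood at 4.30 and 6.32 CPM in EPZ_iPrE1, 9.41 and 5.52 in EPZ_iPrE2 and 0.0677 and 0.0581 in C57_PrESC. It stood at 386 and 399.95 CPM in TG2A_ESC and at 440.2 and 430.3 CPM in C57_ESC, and its changes were -6.21, -5.72 and -12.62 in the PrE comparisons. Sox2 was thus low where Sox17 was high in PrE stem cells, whereas KO10_SL held 298, 293 and 293 CPM of Sox2 beside 23.2 to 27.3 CPM of Sox17.

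In KO10_SL against E14_ESC, 4 of the 15 other Sox genes were called higher and 4 lower, near the shares of all genes in that comparison (25.8% higher and 22.7% lower). Sox3 (2.53), a SoxB1 factor of neural progenitors, Sox21 (1.54), Sox8 (2.16) and Sox9 (2.67) rose, and Sox2 (-0.56), Sox4 (-1.61), Sox12 (-0.95) and Sox13 (-0.74) fell, by edgeR. Against TG2A_ESC 1 was called higher, Sox21 (1.24), and 3 lower, beside 13.6% and 14.1% of all genes. Sox3 (0.82), Sox8 (1.0) and Sox9 (2.09) were not called there. Under 2i, 7 of 15 were called higher in KO10_S2iL than in TG2A_S2iL and 0 lower, beside 15.7% and 14.3% of all genes. Among the 7 were Sox9 (3.50), Sox5 (3.35), Sox8 (3.27) and Sox10 (2.57). Sox9 stood at 0.704 and 0.775 CPM in KO10_S2iL, so these changes concern low levels.

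**Figure D5:**
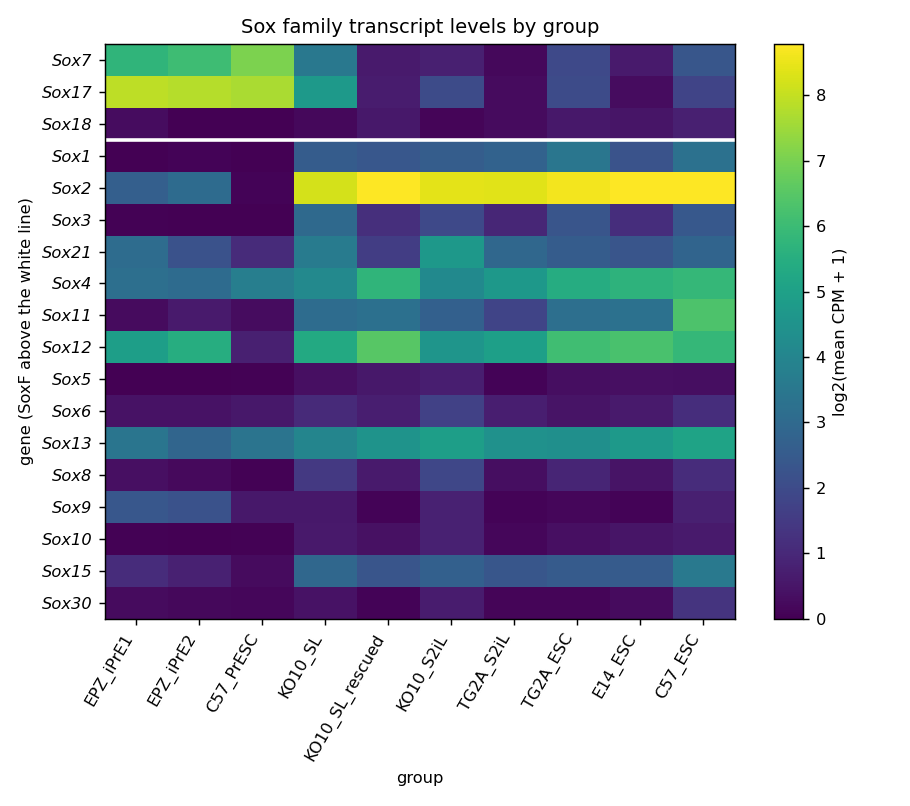
Mean level of 18 Sox genes in 10 groups, as log2(mean CPM + 1) by colour, with the SoxF genes above the white line. Sox17 and Sox7 are brightest in the 3 PrE groups on the left, where Sox2 is dark or nearly so, and Sox18 is dark in all groups.

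Of the PrE transcription factors, Gata4, Gata6, Foxa2 and Foxq1 moved with Sox17 and Sox7 in the PrE comparisons, in KO10_SL and after rescue. Hnf4a, Hhex and Eomes did so only in part. Of 7 listed factors, 5 were called higher and 0 lower in EPZ_iPrE1 against TG2A_ESC (median 5.59), 6 and 0 in EPZ_iPrE2 (median 5.69), and 6 and 1 in C57_PrESC against C57_ESC (median 5.65). In EPZ_iPrE1 the forkhead factors Foxq1 (7.30) and Foxa2 (6.51) rose, as did Gata4 (5.89), which acts with Gata6 in PrE. The factor called lower in C57_PrESC was Eomes, at -2.93. In KO10_SL against E14_ESC 5 were called higher and 1 lower, with Foxq1 at 6.08, Gata4 at 5.63, Gata6 at 5.15 and Foxa2 at 4.87. The remaining factor of these 5 was Eomes (1.11). Hnf4a, a factor of hepatocytes and visceral endoderm, was the one called lower (-1.29), but against TG2A_ESC it stood at 1.39 and was not called, and E14_ESC was itself higher in Hnf4a than TG2A_ESC (2.68, called). In the 3 PrE comparisons Hnf4a was higher by 5.59 to 6.95. In KO10_SL_rescued against KO10_SL 0 were called higher and 5 lower, the same 5 that rose in KO10_SL. In KO10_S2iL against TG2A_S2iL 3 were called higher and 0 lower. The PrE comparisons called 27.3 to 28.8% of all genes higher and 32.2 to 33.4% lower, with medians of -0.07, -0.11 and -0.09. These shares were 25.8% and 22.7% in KO10_SL against E14_ESC and 20.9% and 24.1% in KO10_SL_rescued against KO10_SL. In KO10_S2iL against TG2A_S2iL they were 15.7% and 14.3%. In KO10_S2iL against KO10_SL, with 19.6% of genes called higher and 17.3% lower, Foxq1 (-3.66), Foxa2 (-2.45) and Gata4 (-1.97) were called lower. The other listed factors, Gata6 (-1.20) among them, were not called. In TG2A_S2iL against TG2A_ESC, with 11.7% called higher and 11.6% lower, Foxq1 (-3.29) and Gata6 (-2.33) were called lower. Hnf4a (2.21) and Eomes (2.14) were called higher there, and Gata4, Foxa2 and Hhex were not called.

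Surface and matrix genes of PrE were higher as well. All 10 listed genes were called higher in each of the 3 PrE comparisons, with medians of 5.25, 5.91 and 5.40. In KO10_SL against E14_ESC 9 of 10 were called higher, with Srgn, a proteoglycan core protein, at 5.62 and Cubn, the endocytic receptor cubilin, at 4.93. Lamc1 was not called there (0.27). In KO10_SL_rescued against KO10_SL 9 were called lower, and Lamc1 was not (-0.21). Under 2i, 5 of 10 were called higher in KO10_S2iL than in TG2A_S2iL, with Col4a2 at 4.06 and Col4a1 at 3.41. Of all genes, 27.3 to 28.8% were called higher in the PrE comparisons and 25.8% in KO10_SL against E14_ESC. In KO10_SL_rescued against KO10_SL 24.1% were called lower, and 15.7% were called higher in KO10_S2iL against TG2A_S2iL.

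Genes described as SoxF targets in endoderm or endothelium did not move as a block. Of 9 listed genes 8 were tested, and 4 were called higher and 1 lower in each EPZ line against TG2A_ESC, with medians of 1.54 and 1.73 against -0.07 and -0.11 over all genes. In C57_PrESC against C57_ESC 3 were called higher and 1 lower (median 1.40 against -0.09). Over all genes the 3 comparisons called 27.9, 28.8 and 27.3% higher and 32.2, 33.4 and 33.4% lower. Lama1, the laminin chain of the PrE basement membrane, rose by 4.27, 4.52 and 4.27, and Cldn5, a tight junction gene of endothelium, was called lower in all 3 comparisons. Cldn5 held 0 counts in the PrE groups, against 25 in TG2A_ESC and 64 in C57_ESC over the group, so its fall rests on few counts. In KO10_SL against E14_ESC 5 were called higher and 1 lower (median 2.09 against 0.07), beside 25.8% and 22.7% of all genes. Against TG2A_ESC the counts were again 5 and 1, beside 13.6% and 14.1% of all genes. In KO10_SL against E14_ESC Cdh5, the endothelial cadherin, rose by 4.80 but stood at 4.30, 2.61 and 1.74 CPM, and Lama1 rose by 2.90 to 856, 738 and 747 CPM, against 99.7, 117 and 97.0 CPM in E14_ESC. Fgf3 rose by 2.09, Dll4 by 2.09 and Prox1 by 1.55, and Notch1 fell by 2.07. Dll4 held 5, 9 and 8 counts in KO10_SL against 0, 2 and 2 in E14_ESC. Prox1 stood at 1.75, 1.31 and 1.69 CPM in KO10_SL, so the rises of Dll4 and Prox1 concern low levels. In KO10_SL_rescued against KO10_SL 5 were called lower and Notch1 higher (1.70), beside 24.1% of all genes called lower and 20.9% higher. The list holds genes reported in other settings, and nothing here measures SoxF binding.

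Among partners and Wnt effectors of SoxF proteins, 8 of 9 listed genes were tested, and 1 was called higher and 5 lower in each EPZ line against TG2A_ESC. In C57_PrESC against C57_ESC the counts were 0 and 7, and in KO10_SL against E14_ESC 1 and 4. Over all genes 27.3 to 28.8% were called higher and 32.2 to 33.4% lower in the PrE comparisons, and 25.8% and 22.7% in KO10_SL. Pou5f1, which encodes Oct4, remained abundant: 741 and 801 CPM in EPZ_iPrE1, 806 and 713 in EPZ_iPrE2, and 635 and 435 in C57_PrESC, with changes of -1.09, -1.11 and -0.76. In KO10_SL it rose by 0.47 against E14_ESC (SE 0.158, adjusted p = 0.0214 by edgeR), and against TG2A_ESC it stood at -0.33 (adjusted p = 0.172 by edgeR), so its direction turned with the wild-type set. Lef1, a Wnt-responsive HMG factor, changed by -4.49, -7.05 and -5.05 in the PrE comparisons. Tcf7 rose by 1.26 in both EPZ lines and fell by 1.04 in C57_PrESC. Ctnnb1, which encodes beta-catenin, fell by 0.54 to 0.77 in PrE stem cells and by 0.52 in KO10_SL.

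Sox17 also marks definitive endoderm, so streak and definitive endoderm genes were counted. Of 8 listed genes 7 were tested. In EPZ_iPrE1 against TG2A_ESC 0 were called higher and 2 lower, in EPZ_iPrE2 0 and 3, and in C57_PrESC against C57_ESC 0 and 5, beside 27.3 to 28.8% of all genes called higher and 32.2 to 33.4% lower. Nodal changed by -5.45, -4.56 and -5.57 in these comparisons. In KO10_SL against E14_ESC 3 were called higher and 0 lower: Lhx1 (3.22), Gsc (2.31) and Eomes (1.11), beside 25.8% and 22.7% of all genes. Against TG2A_ESC, with 13.6% of genes called higher and 14.1% lower, the 3 called higher were Gsc (2.10), Eomes (1.83) and Cxcr4 (1.76), and Lhx1 was not called (1.22). Where 0 genes of a list stand here for the PrE and knockout comparisons, an unadjusted edgeR p of 0.05 and DESeq2 gave 0 as well, except that 1 definitive endoderm gene was higher at an unadjusted p in each EPZ line.

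Endothelial genes were read because Sox18, Sox7 and Sox17 share that tissue. The 13 endothelial markers summed to 142 to 379 CPM in PrE stem cells and 130.1 to 234 CPM in ESCs, and Emcn was at 0 in all libraries. The genes named next were chosen with their values in view. Of 12 tested, 3 were called higher and 8 lower in EPZ_iPrE1, 3 and 6 in EPZ_iPrE2, 4 and 7 in C57_PrESC, and 4 and 3 in KO10_SL against E14_ESC. The shares of all genes were 27.9% higher and 32.2% lower in EPZ_iPrE1 and 28.8 and 33.4% in EPZ_iPrE2. They were 27.3 and 33.4% in C57_PrESC and 25.8 and 22.7% in KO10_SL. The counts of higher genes lay near these shares, as did the count of lower genes in KO10_SL. In the 3 PrE comparisons the counts of lower genes lay above the share of all genes. Pecam1, a surface marker of endothelium, changed by -8.22, -8.98 and -9.30 in the PrE comparisons. It stood at 59.1 to 163 CPM in the ESC libraries and at most 0.384 CPM in PrE stem cells, so ESCs here held it too. Flt1, a VEGF receptor, rose by 8.22, 8.54 and 2.77, and Esam by 4.14, 4.23 and 4.10, and both rose in KO10_SL (4.11 and 2.62). Fibroblast markers were called higher in 3, 5 and 2 of 9 cases in the 3 PrE comparisons and macrophage markers in 1, 1 and 4 of 6 tested, with 0 called lower, beside 27.3 to 28.8% of all genes called higher.

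The genes whose pattern was most like each member were found by Pearson r of log2(CPM + 1) over the 10 group means, among 11157 genes reaching 10 CPM in some group. These values are a description, since the groups share a PrE against ESC split. Closest to Sox17 were Foxq1 (r = 0.998), Lama1 (0.995), the Wnt antagonist Dkk1 (0.994), Nostrin (0.992) and Col4a1 (0.991). Closest to Sox7 were Srgn (0.990), Pth1r (0.990), a receptor for parathyroid hormone related protein known from parietal endoderm, Bmper (0.989), Esam (0.989) and Nostrin (0.985). Sox7 and Sox17 had r = 0.975 with each other, and 0.899 over the 7 ESC groups alone. Foxq1, nearest to Sox17, stood at 408 and 522 CPM in EPZ_iPrE1, 567 and 368 in EPZ_iPrE2 and 405 and 253 in C57_PrESC, and at 37.0, 29.0 and 28.0 CPM in KO10_SL. For Sox18 the highest values were those of Spast (0.963), Zic5 (0.958), Platr4 (0.953), Vbp1 (0.949) and Ube2o (0.941), but all its group means were under 1 CPM.

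Of the 12 nearest protein-coding neighbours of the members, 7 were tested, and none of the 7 rose in all of the 3 PrE comparisons and KO10_SL against E14_ESC. Each of these comparisons called 25.8 to 28.8% of all genes higher, and the share higher in all 4 was not counted. With 7 genes this count therefore says little about the loci. Pinx1, 23.8 kb before Sox7, changed by -1.89, -1.34 and -0.82 in the PrE comparisons and rose by 0.50 in KO10_SL against E14_ESC. Mrpl15, 276 kb past Sox17, changed by -0.96, -0.95 and -0.96, and was not called in KO10_SL (0.11). Lypla1, the gene after it, fell in all 4 comparisons (-0.55, -0.60, -0.94 and -0.92). Sox17 is overlapped over 804 bases by the antisense gene Gm37587, and reads there cannot be told apart where strand was not used in counting. Gm37587 held 11.5 to 37.5 estimated counts in the 6 PrE libraries and 0 in the other 16, which is 0.356 to 1.42% of the joint sum with Sox17.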

How the data were processed

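Bulk RNA-seq of 22 mouse cell libraries in 10 groups was read from 1 table of expected counts that the authors deposited, with 1 column for each library and no scaling. Per the submitters' processing notes, Trim Galore, STAR 2.7.6a, DESeq2 and build mm10 were used; the counting tool is not given in the sources used here, nor is the use of strand. Between 5.71 and 7.26% of symbols held fractional values per library, so the values, planned as counts, were rounded. The labels name both polyA RNA and an rRNA depletion kit, and spell the knocked-out gene Eeh2.

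In R 4.3.3, edgeR 4.0.16 kept 17547 genes by filterByExpr, all 3 members included, scaled libraries by TMM and fitted 1 quasi-likelihood model with a coefficient for each group (12 residual degrees of freedom). Each of 16 comparisons was a contrast, adjusted by Benjamini-Hochberg over all genes and called below 0.05. The SE is the absolute log2 change over the root of F. Beside a group at 0, the fold is a bound from 3 counts over the group. Replicates were no duplicates: their counts differed by a chi-square of 2.14 to 59.1 per gene. The fit was tested on simulated data with known changes. Alternatives were RLE scaling, no filter, a replicate block, the compared groups alone, DESeq2 1.42.0 and leaving out each library.

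Positions and coding sequence came from GENCODE M21. The named genes are all members, Ezh2, the members of the lists with the largest called changes, the 5 most alike genes and the nearest coding neighbours. Lists were other Sox genes, PrE transcription factors, PrE surface and matrix, reported SoxF targets, SoxF partners and Wnt effectors, definitive endoderm and streak, and endothelial, fibroblast, macrophage, pluripotent and primitive endoderm markers. Members and lists were chosen with earlier results of these data known. The study's second knockout line, human cells and histone profiles were not analysed here. One gene first placed in the list of PrE transcription factors is not reported here, and the counts and medians given cover the remaining 7.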

Additional observations from a re-analysis of the deposited data

How the results depend on the processing

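Sox17 and Sox7 kept direction and call in the 3 PrE comparisons and in KO10_SL against both wild-type sets and the EPZ mean. They also did in KO10_SL_rescued against KO10_SL. This held under every alternative run: RLE scaling, no filter, the replicate block, the compared groups alone, DESeq2 and each left-out library. Where that left 1 library in a group, its spread was taken from the other groups. Sox7 in KO10_S2iL against TG2A_S2iL passed with no filter (2.28), the compared groups alone (2.23) and DESeq2 (2.32). With E14_ESC as serum/LIF control, an alternative chosen after seeing the data, the difference between media turned to -2.90 for Sox17 and -1.96 for Sox7. The replicate block turned Sox18 in E14_ESC against TG2A_ESC to 0.053, called in neither fit, and changed no other call. Replicate numbers share only a number: replicate differences of compared groups had correlations of -0.36 to 0.29. RLE scaling moved the median of all genes to between -0.16 and 0.19 over the 16 comparisons and changed no call of a member.

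Leaving out 1 library gave these ranges where a call or sign changed. Sox17 ran from 3.31 to 4.56 in KO10_S2iL against TG2A_S2iL, from -4.57 to -2.88 in TG2A_S2iL against TG2A_ESC, from -4.18 to -2.71 in E14_ESC against TG2A_ESC and from -3.04 to 0.65 in C57_ESC against TG2A_ESC. It ran from -0.30 to 0.10 in EPZ_iPrE2 against EPZ_iPrE1, from -0.18 to 0.73 in the EPZ mean against C57_PrESC and from -0.15 to 1.52 in the difference between media. Sox7 ran from -2.52 to -2.0 in E14_ESC against TG2A_ESC, from -1.13 to 1.29 in C57_ESC against TG2A_ESC, from -0.39 to 0.23 in KO10_SL_rescued against E14_ESC and from -0.29 to 1.56 in the difference between media. Sox18 ran from -6.18 to -0.026 in EPZ_iPrE1 against TG2A_ESC, from -2.27 to -1.17 in KO10_SL against E14_ESC, from 1.40 to 2.50 in KO10_SL_rescued against KO10_SL and from -0.26 to 1.07 in the difference between media. It ran from -0.43 to 0.22 in E14_ESC against TG2A_ESC and from 1.15 to 4.55 in KO10_SL against the EPZ mean. The ends at -6.18 and 4.55 are fitted against libraries that all stand at 0 counts and give no size. Sox18 had no usable value in the EPZ mean against C57_PrESC, and none in most fits of the compared groups alone.

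Counts of genes called over the whole table moved by over 1.5 times in some comparisons, and the cause was not tested. With the compared groups alone, 10642 became 5383 in C57_PrESC against C57_ESC, 686 became 28 in EPZ_iPrE2 against EPZ_iPrE1, 7150 became 4445 in the EPZ mean against C57_PrESC, 19 became 551 in KO10_SL_rescued against E14_ESC, 5263 became 9607 in KO10_S2iL against TG2A_S2iL, 6482 became 10037 in KO10_S2iL against KO10_SL, 343 became 1795 for the difference between media and 6831 became 1692 in C57_ESC against TG2A_ESC. The 686, 19 and 343 became 1143, 389 and 923 with no filter, the 19 and 343 became 6 and 165 with the block and 178 and 987 with DESeq2, and the 343 became 4557 with E14_ESC as control. Without 1 library, the 686 became 379 to 407, the 19 became as few as 1, the 5263 became 2847 to 3156, the 6482 became 3847 to 4007 and the 343 became as few as 44. In TG2A_S2iL against TG2A_ESC 4086 became 2076 to 2509 without TG2A_ESC replicate 2 or either TG2A_S2iL library, and in E14_ESC against TG2A_ESC 4270 became 1676 without TG2A_ESC replicate 2. Depth limits Sox18 in all groups, and Sox17 and Sox7 in TG2A_S2iL, E14_ESC and the rescued cells.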
